A study of Mus musculus with 2 samples.

Results

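The Dspp, Dmp1, Ibsp, Mepe and Spp1 genes encode acidic, phosphorylated proteins of the bone and tooth matrix and lie side by side on mouse chromosome 5. They were examined here as a 320 kb window, chromosome 5, 104580001 to 104900000 in genome build mm9, which is defined by the genes it holds and uses no measured value, although it was picked for description with earlier results of these data known. Of the 61400 regions listed as higher in histone H4 tags after SAHA, 59 overlapped the window, and all 59 are accounted for below. The gene table used here is in build GRCm38.p6, so it served for gene names and gene order only. No region was assigned to a gene, exon, intron or start site, and whether a region lies in a gene was not analysed here.

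The data came from 2 chromatin immunoprecipitation and sequencing (ChIP-seq) libraries of MC3T3 sc4 cells, a subclone of a mouse osteoblast line from calvaria. The labels name no genetic change. Both cultures were differentiated in medium with ascorbic acid and beta glycerol phosphate, and were treated on day 4 for 2 hours. The groups were the solvent DMSO (n = 1) and 20 µM SAHA (n = 1). The compounds also stayed on the cells during a collagenase digest of 40 min. The antibody label reads histone H4, while the design text of the series speaks of acetylated H4. The cell line label gives MC3T3, the list holds no expression values, and the identity of the cells was therefore not checked against marker genes. The SAHA library kept 123676661 tags and the DMSO library 76214516, so that 1 DMSO tag was worth 1.62 SAHA tags after depth scaling. With 1 library per condition there was no replicate error and no test of the treatment, and each difference compares these libraries only.

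The proteins belong to the SIBLING family (small integrin-binding ligand, N-linked glycoproteins), which share an Arg-Gly-Asp motif for integrin binding and are secreted into mineralizing matrix. Histone deacetylases remove acetyl groups from lysines of histone tails, and SAHA (vorinostat) blocks several of these enzymes, which generally raises histone acetylation. Acetylated H4 is a known feature of chromatin around active promoters and enhancers, and the genes of this family are known to be used at different stages as osteoblasts mature into osteocytes.

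In the gene order of RefSeq, Dspp comes first. It encodes dentin sialophosphoprotein, which is cleaved into the main acidic proteins of dentin. Dmp1 follows, whose product, dentin matrix protein 1, is made by osteocytes and odontoblasts and restrains the phosphate-regulating hormone Fgf23. Ibsp encodes bone sialoprotein, a nucleator of hydroxyapatite in early mineralizing osteoblasts. Mepe encodes matrix extracellular phosphoglycoprotein of osteocytes, whose acidic peptide inhibits mineralization. Spp1 encodes osteopontin, which inhibits crystal growth and lets osteoclasts attach to bone. The table has 1 further gene between Dspp and Spp1, the long non-coding Gm31048 between Dmp1 and Ibsp. Sparcl1, a matricellular protein gene related to osteonectin, is the nearest named protein-coding gene on the Dspp side, with Nudt9, Hsd17b11 and Hsd17b13 beyond it. Pkd2, which encodes the cation channel polycystin-2, lies next to Spp1 on the other side.

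RefSeq upstream sequence was found for 4 of the 5 genes, at 6 start sites. The 250 bases before 5 of these starts are shown because they are the reference promoters of the genes in the window and share a CCAAT box. They are from build GRCm38.p6, chromosome 5, plus strand, 5′ to 3′, and end at the base before the start. Their place among the mm9 regions was not determined. Capitals mark the CCAAT box (CCAAT, here always on the other strand as ATTGG) and the Runx site (TGTGGT, or ACCACA on the other strand), the recognition sequence of a factor family that includes the osteoblast regulator Runx2.
Dmp1, first start: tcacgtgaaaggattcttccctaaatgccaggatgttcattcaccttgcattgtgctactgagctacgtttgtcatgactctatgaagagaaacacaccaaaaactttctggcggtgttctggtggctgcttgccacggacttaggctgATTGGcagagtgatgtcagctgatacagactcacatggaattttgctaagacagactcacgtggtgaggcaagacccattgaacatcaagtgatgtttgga
Dmp1, second start: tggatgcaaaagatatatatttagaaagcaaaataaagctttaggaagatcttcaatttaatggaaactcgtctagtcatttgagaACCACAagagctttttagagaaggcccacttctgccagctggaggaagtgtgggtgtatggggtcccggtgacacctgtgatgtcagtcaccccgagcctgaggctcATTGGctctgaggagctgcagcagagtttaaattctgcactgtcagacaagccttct
Ibsp: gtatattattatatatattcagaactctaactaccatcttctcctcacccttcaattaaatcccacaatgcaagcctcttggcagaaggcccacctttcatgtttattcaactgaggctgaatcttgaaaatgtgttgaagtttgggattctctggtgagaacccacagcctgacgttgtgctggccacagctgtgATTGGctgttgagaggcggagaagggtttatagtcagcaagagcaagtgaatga
Mepe: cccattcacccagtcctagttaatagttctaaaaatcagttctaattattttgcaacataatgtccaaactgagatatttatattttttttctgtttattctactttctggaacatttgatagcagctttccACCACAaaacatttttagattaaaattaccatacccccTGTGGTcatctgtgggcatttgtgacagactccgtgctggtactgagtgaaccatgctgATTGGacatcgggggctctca
Spp1, first start: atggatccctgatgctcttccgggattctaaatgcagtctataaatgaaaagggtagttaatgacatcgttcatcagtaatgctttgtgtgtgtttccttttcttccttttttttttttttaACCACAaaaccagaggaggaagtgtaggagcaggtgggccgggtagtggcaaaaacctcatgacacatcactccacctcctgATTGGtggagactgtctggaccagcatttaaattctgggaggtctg

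A CCAAT box lay in 5 of the 6 sequences and in all 4 genes, against 33.8% of the 32851 mouse upstream sequences of the same length, counting both strands. It covered bases -101 to -97 and -57 to -53 for the Dmp1 starts, -54 to -50 for Ibsp, -21 to -17 for Mepe and -46 to -42 for Spp1. The longer form CCAATCA, which contains the box, was searched after the sequences were seen. It occurred in 4 of the 6 sequences, 1 for each of the 4 genes, and in 7.23% of all sequences. The Runx letters were found in 3 of the 6 sequences and in 4614 of all 32851. They lay at -164 to -159 for the second Dmp1 start, at -118 to -113 and -80 to -75 for Mepe, and at -128 to -123 for Spp1. The TATA letters (TATAAA) were in 3 of the 6 sequences and in 12.4% of all, at -28 to -23 for Ibsp and -173 to -168 for Mepe, both on the other strand, and at -211 to -206 for Spp1. The letters TGACGT of a cyclic AMP response element were in 1 of the 6, at -79 to -74 for Ibsp, and in 6.47% of all. The AP-1 letters TGANTCA (6.75% of all) were in none of the 6. The letters TTTAAA were present before Spp1 (-20 to -15) and the second Dmp1 start (-31 to -26) and in 12.1% of all, and CACGTG at -249 to -244 and -44 to -39 of the first Dmp1 start and in 6.02% of all. These matches are letters in a reference sequence and say nothing about binding in these cells.

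The window was among the parts of chromosome 5 most densely filled with SAHA-high regions. Of 464 windows of 320 kb laid end to end over the chromosome, 3 held 59 regions or more, this window included (0.647%). The median window held 1 region (quartiles 0 and 12), the fullest held 83, and 208 held none. The regions covered 140.1 kb or 43.8% of the window, where the median window was covered to 0.494% (quartiles 0 and 6.41%). Only 4 of the other windows were covered as much or more, the highest to 56.4%. The windows are a description of 1 pair of libraries and stretches where few tags can map were not taken out.

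The neighbouring windows differed from each other. The 320 kb before it, on the Dspp side, held 21 regions covering 9.76%, and the window before that 48 regions covering 25.4%. After it, on the Spp1 side, 5 regions covered 2.26%, and the next 320 kb held 0 regions. The nearest listed region before the window ended at 104560445, and the nearest after it began at 104901018. The listing therefore fell off steeply beyond the Spp1 side and less so beyond the Dspp side.

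**Figure D1:**
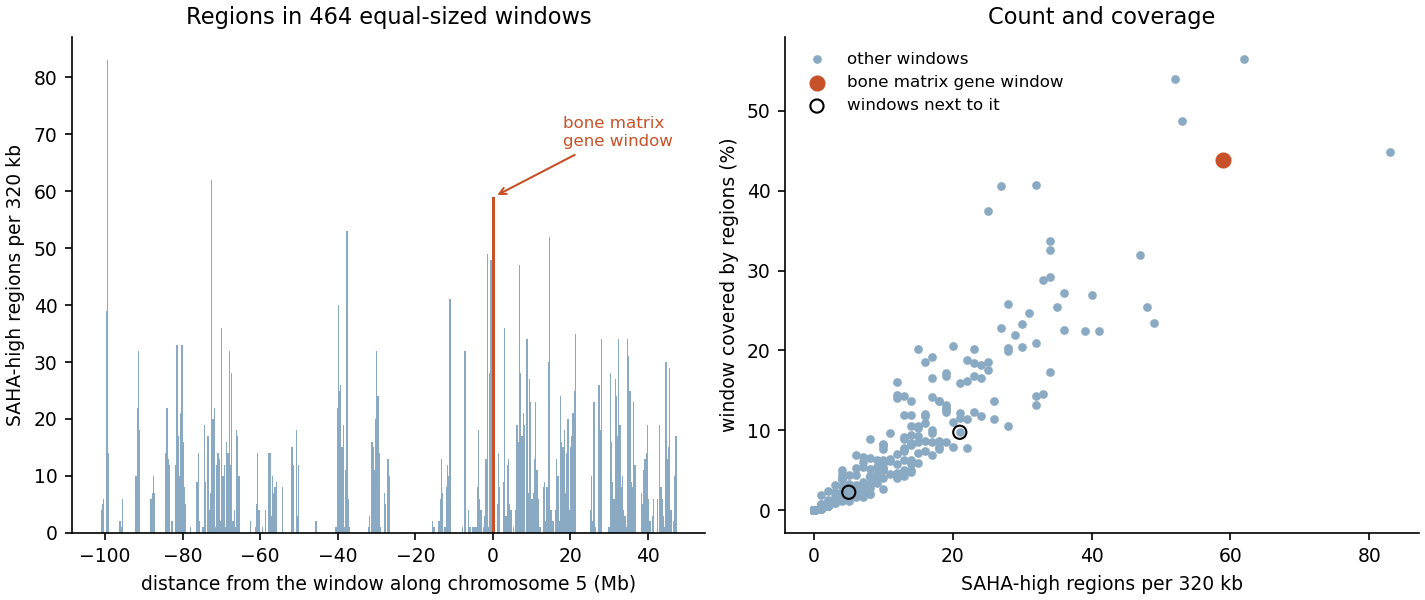
Left, SAHA-high regions per 320 kb window along chromosome 5 against the distance from the bone matrix gene window in Mb, whose bar (59 regions) is drawn wider to be visible. Right, each point is 1 window, with its number of regions and the share of its length they cover in percent; the bone matrix gene window (59 regions, 43.8%) stands near the top, and the windows next to it (21 and 5 regions) lie low.

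Within the window the regions were spread over most of its length. Of the 32 bins of 10 kb, 28 held part of a region, against 2390 of 14901 bins on chromosome 5 (16%). In 13 bins regions filled at least 50% of the length, against 490 bins on the chromosome. The 4 empty bins were those from 104600001 to 104620000 and from 104880001 to 104900000. They lie in the longest empty stretches, 32.2 kb from 104590121 to 104622283 and 23.1 kb from 104876857 to the end of the window. Empty stretches of 15.5 kb (104784011 to 104799545), 10.6 kb (104813071 to 104823624) and 10.2 kb (104695952 to 104706134) followed in length. Together these 5 stretches made up 28.6% of the window. A stretch without a region had no called excess in SAHA. It may be equal in both libraries, higher in DMSO or low in tags, since a list of regions higher in DMSO was not analysed here.

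The 4 of these stretches that lie between regions divide the 59 regions into 5 groups, numbered here along the chromosome. Groups 2 and 3 hold 18 and 22 regions, and group 5 holds 12. The smaller groups are group 4 with 5 regions and group 1 with 2. Group 2 spanned 73.7 kb and was covered to 74.6%, and group 3 spanned 77.9 kb and was covered to 55.5%. Groups 2 and 3 together held 71.4% of the 30528 SAHA tags in the regions of the window. Of the 1206 groups that the same 10 kb limit gives on chromosome 5, 12 had at least as many regions as group 2 and 8 at least as many as group 3, themselves included.

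**Figure D2:**
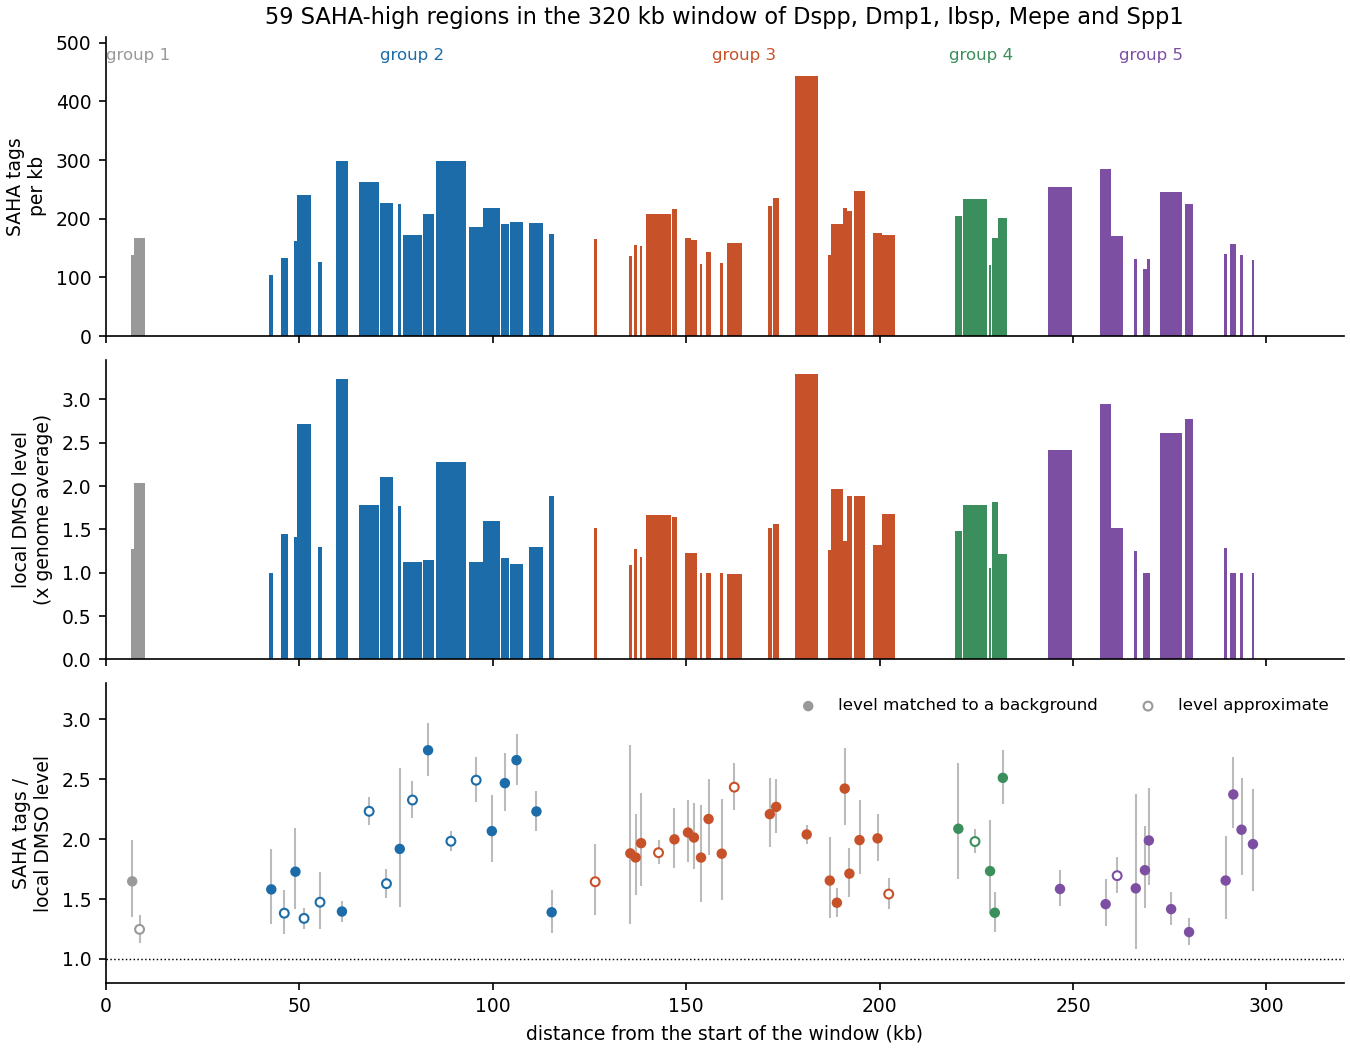
The 59 regions along the window, with the distance from its start in kb on the x axis and 1 colour per group. The panels give SAHA tags per kb, the local DMSO level as a multiple of the genome average, and the ratio of SAHA tags to that level with its 95% counting interval (open points have an approximate level); ratios in group 2 run low at its left edge and high in its middle, and the tallest bar, in group 3, reaches 443 SAHA tags per kb.

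For each region the list gives the SAHA tags, a score (10 times the −log10 of the Poisson p, with a cutoff of 50), the fold at the summit and the FDR, all as the authors' caller computed them. The DMSO tags are not listed, so a local DMSO level was recovered from the tags and the score. It is stated relative to the average over the genome (66.1 tags per kb after scaling to the SAHA library). Where this level was the region's own DMSO count (9 regions) the ratio of SAHA to DMSO is exact. It is a lower limit where the level was the genome average or DMSO tags over 1 kb or 10 kb (35 regions), and approximate, written "about", in the other 15. Intervals of 95% cover counting error only. Where the ratio is exact they are exact binomial and include the DMSO tags, and elsewhere they are Poisson intervals of the SAHA tags alone.

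Group 2 contained the longest dense run of the window and 8 of its 12 highest-scoring regions. From 104645516 to 104693119, a run of 11 regions picked out after its values were seen, 88.3% of 47.6 kb was covered and the SAHA regions held 9469 tags. The region at 104665238 to 104673178 was the longest of the window at 7.94 kb and held 2373 SAHA tags (score 1966.63, fold 4.85), about 1.98 times a DMSO level of 2.28 times the average. The region at 104645516 to 104650634 held 1348 tags (score 1490.36, fold 6.53), about 2.23 times the DMSO level. Both had a local DMSO level above the genome average and a ratio to that level of about 2. These levels matched no background, so the DMSO tags of the regions themselves are not known.

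The 2 highest recovered ratios of the window, both lower limits, were also in this run, at regions of lower DMSO level. At 104661870 to 104664745 599 tags amounted to at least 2.74 times a level of 1.15 times the average (interval 2.53 to 2.97), with a score of 991.92 and a fold of 6.35. At 104684573 to 104687769 the 621 SAHA tags were at least 2.66 times the DMSO level (interval 2.45 to 2.88; score 975.64, fold 6.99). The region at 104673903 to 104677566 held 682 tags, about 2.49 times the level (score 951.33, fold 6.35). The first 2 of these 3 ratios are lower limits and the third is approximate, and their intervals overlap. Their order, among themselves and against other lower limits of the window, is therefore not known.

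Of the remaining high scores in the run, the region at 104656794 to 104661748 had 854 SAHA tags, about 2.33 times the DMSO level (score 1037.07, fold 7.19). The region at 104689519 to 104693119 had 691, at least 2.23 times (score 771.51, fold 4.78). At 104677572 to 104682003 the DMSO count itself was recovered: SAHA gave 966 tags and DMSO 288, which is 2.07 to 1 after scaling (interval 1.81 to 2.37; score 899.74, fold 5.31).

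The start of group 2 had lower folds and lower recovered ratios than the run of 11. In its first 6 regions, from 104622284 to 104642685, the ratios were between 1.34 and 1.73 (median 1.43) and the folds between 3.02 and 4.33. In the run of 11 the ratios were 1.63 to 2.74 (median 2.23) and the folds 3.46 to 7.41, so both ranges overlap slightly. None of the first 6 ratios is exact and most of the 11 are lower limits or approximate, so the true ratios of these parts cannot be ordered. The split was made after the values were seen and was not tested. At 104639401 to 104642685 the SAHA density was 298.9 tags per kb, equal within counting error to that of the longest region of the window, yet its 982 tags were at least 1.4 times a DMSO level of 3.24 times the average. Since this ratio is a lower limit and that of the longest region is approximate, the order of their ratios is not known.

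Group 3 held the region with the highest score and the most SAHA tags of the window. At 104758240 to 104764114, 2605 SAHA tags (interval 2506 to 2707) gave 443.4 tags per kb, a score of 2317.05 and a fold of 6.85. Its DMSO level was also the highest of the window, 3.29 times the average, and the ratio was at least 2.04 (interval 1.96 to 2.12). Of 2412 regions with a recovered DMSO level of at least 3 times the average, 13 (0.539%) had a ratio of 2 or more. The median ratio of the 2412 was 1.27. The 294 regions of the list with a score of 3000 or more have no recovered level and are missing from this count. How common such a pair of values is in the whole list is therefore not known. The region at 104758240 to 104764114 was singled out after its values were seen.

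In the rest of group 3, the region at 104719552 to 104726205 held 1380 SAHA tags (score 1007.45, fold 4.96), about 1.89 times the DMSO level. The region at 104740499 to 104744424 held 626 tags (score 836.31, fold 5.47), about 2.43 times a level of 0.990 times the genome average. That level matched no background and lies slightly below what the caller allows. Between them, from 104726395 to 104739535, 6 smaller regions of 81 to 259 tags had ratios between at least 1.85 and at least 2.17. At 104773403 to 104776261 there were 708 SAHA tags and 219 DMSO tags, a scaled ratio of 1.99 (interval 1.71 to 2.33).

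Group 4 was short and almost filled, with 94.6% of 13.5 kb covered. The region at 104801468 to 104807897 had the highest fold of the window, 10.30, with 1504 SAHA tags and a score of 1248.69. Over its whole 6.43 kb the tags were about 1.98 times the DMSO level, so the summit fold describes its peak and not its length. At the end of the group, 104810682 to 104813070, 482 SAHA tags were at least 2.51 times the DMSO level (score 687.21, fold 6).

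Group 5, the last along the chromosome, had the lowest median recovered ratio of groups 2 to 5. It was 1.67 over its 12 regions, against 1.95 in group 2, 1.98 in group 3 and 1.98 in group 4. Most ratios in each of these groups are lower limits or approximate, so the order of the true medians is not known. For 4 regions of group 5, 3 long and 1 short, the DMSO counts themselves were recovered. At 104823625 to 104829688 the counts were 1537 SAHA and 598 DMSO tags, a scaled ratio of 1.58 (interval 1.44 to 1.74). At 104837116 to 104839786 they were 759 and 321, a ratio of 1.46 (1.28 to 1.67). At 104852605 to 104858157 they were 1360 and 592, a ratio of 1.42 (1.28 to 1.56). At the short one, 104845864 to 104846611, they were 98 and 38, a ratio of 1.59 (1.08 to 2.38). The intervals of the 3 long regions overlap one another and lie below the 1.81 to 2.37 of the region with 288 DMSO tags in group 2, while that of the short region spans it. All 4 overlap the interval of the other exact ratio of group 2, at 104655559 to 104656417, where 193 SAHA and 62 DMSO tags gave 1.92 (1.43 to 2.60). The 4 last regions, 104869151 to 104876856, were short (median 717.5 bp), lay at a DMSO level of 1.00 to 1.29 times the average, and had ratios of at least 1.65 to at least 2.37.

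Group 1 consisted of the regions at 104586442 to 104587212 and 104587337 to 104590120, with 107 and 466 SAHA tags, folds of 3.45 and 2.57, and scores of 61.9 and 57.23. The fold of 2.57 was the lowest of the window and the ratio of this second region was about 1.25.

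The 47 regions outside the 12 of highest score had scores from 51.31 to 687.21, 80 to 1537 SAHA tags, folds of 2.57 to 7.41 and ratios of 1.22 to 2.51, with a median ratio of 1.73. The 12 themselves held 46.7% of the SAHA tags of the window and had ratios of 1.89 to 2.74 with a median of 2.23.

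Against the whole list, the regions of the window had somewhat higher values at the summit and over their length. The median fold was 4.34 (quartiles 3.77 and 5.52), against 3.93 for all 61400 regions and 3.86 for the 3394 other regions of chromosome 5. A fold of at least 5 was reached by 18 of 59 (30.5%), where the share in the list was 19%. The recovered ratio of tags to level had a median of 1.89 (quartiles 1.61 and 2.08), against 1.80 in the list. A recovered ratio of at least 2 was reached by 21 of 59 (35.6%), where the share was 28%. Most of these ratios are lower limits or approximate, so the shares with a true ratio of at least 2 are not known. The median length was 1667 bp against 1337 bp, and the median DMSO level 1.37 against 1.29 times the genome average. Neighbouring regions may be parts of 1 domain and are not independent, so no test was made of these differences.

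Windows that also hold many regions are a closer comparison, although most of them are less filled than this one. Of all 464 windows, 3 held as many regions or more and 5 were covered as much or more, this window included. Among the 57 windows of chromosome 5 with at least 20 regions, a limit set after the data were seen, the median fold of 4.34 was matched or passed by 7, itself included, and the median ratio by 14. Their own quartiles were 3.78 and 4.18 for the median fold and 1.78 and 1.89 for the median ratio. The window was thus in the upper part of the range for both and at the extreme of neither.

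An FDR of 100% was listed for 16 of 59 regions (27.1%), where the share in the list was 11.6%. Among the 57 windows of chromosome 5 with at least 20 regions, the median share was 15.4% (quartiles 7.69% and 23.8%). In 9 of them it was as high or higher, this window included. As this caller is known to define the FDR, although the header is silent on it, a value of 100% means that at the score of such a region at least as many regions were called with SAHA and DMSO exchanged as were listed. It applied to every listed region with a score of 557.07 or more, and so to all 12 named above. The other 43 regions of the window had FDR values from 58.26% to 88.71%. No region of the whole list had an FDR below 58.23%. By this measure the calls of highest score carried the highest FDR of the window. The unequal duplicate rate (97.4% of SAHA and 65.6% of DMSO tags were kept) cannot be told apart from the treatment.

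The median recovered ratio was lowest at the highest DMSO levels in both the window and the list. In the list it fell with each class of level, while in the window it lay between 1.90 and 2.01 up to 2 times the average and was lower above that. In the 10 regions at or below the genome average the median ratio was 1.97, against 1.98 in 13336 such regions of the list. At levels up to 1.5 times the average it was 2.01 in 23 regions against 1.86, and at 1.5 to 2 times 1.90 in 16 regions against 1.62. Above 2 times the average it was 1.44 in 10 regions against 1.41. In these recovered medians the window and the list differed at levels between 1 and 2 times the average and little at either end. Most of the ratios are lower limits or approximate, so how the true ratios differ in each class is not known. The pattern was not tested. Part of any fall with the level is built in, because that level is also the denominator.

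**Figure D3:**
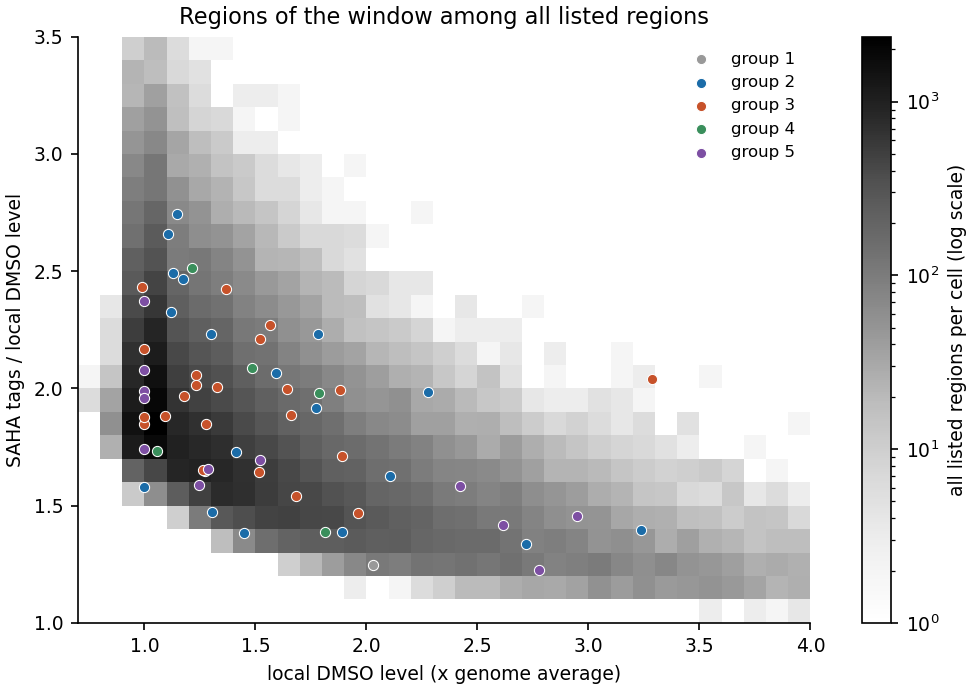
Each coloured point is 1 of the 59 regions, by group, with its local DMSO level (multiple of the genome average) on the x axis and its ratio of SAHA tags to that level on the y axis. Grey cells give the number of listed regions with a recovered level on a log scale. The cells start at levels from 0.7 to 3.9 and at ratios from 1 to 3.4. Regions beyond the last cells are not shown, although levels in the list reach 22.4 and ratios 5.09. The 294 regions with a score of 3000 or more have no level and are not shown either. The regions of the window lie within the range of the grey cells. The group 3 point at a level of 3.29 and a ratio of 2.04 lies at their sparse upper edge.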

How the data were processed

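The deposited file is a single region list in build mm9. The tools named in the submitters' processing notes are MACS 1.4.0rc2, SAMtools, BWA 0.5.9 and CASAVA 1.7.0. Per the file headers, MACS took SAHA reads as ChIP and DMSO reads as control, with a p cutoff of 1e-05, at most 3 duplicate tags per position, the smaller library scaled to the larger, and local backgrounds of 1 kb and 10 kb. As deposited, tags are raw counts of SAHA tags, the score is 10 times a −log10 p-value, fold enrichment is a ratio to the local DMSO background, and FDR is a percent. Starts and ends are as deposited.

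From these, with pandas 2.3.3, scipy 1.17.1 and numpy 2.4.6 in Python 3.11.15, regions overlapping the window by at least 1 bp were taken, and the chromosome was tiled with windows aligned to it, from its first to its last listed region. The local DMSO level was solved as the Poisson mean for which more than the listed tags has the listed score, for scores under 3000 (294 of 61400 regions, none in the window, were left out). A level was matched when, within the rounding of the score (0.005), it equalled the average over the genome or corresponded to a whole DMSO tag number, after scaling, in the region, 1 kb or 10 kb. This held for 75.8% of regions with a level and 44 of 59 in the window. By chance 1.82% would match, averaged over all regions with a level. This share was not computed for the window alone. That the caller takes the highest of its backgrounds is known of it and not stated in the headers. At or below the average means not above it by more than 0.1%. The method was tested on simulated data. Their levels were drawn from the same backgrounds that the matching tries, so the test says nothing about levels that matched none. Regions were grouped across gaps of up to 10 kb. The depth limits each value to the counting intervals given.

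The 5 genes, all regions of the window, and the 12 of highest score were named by rule, and the window and lists were chosen with earlier results of these data known. Alternatives tried were limits on score and fold, joining regions, summit position, other windows, depth scaling, matched levels and a pseudocount. Context genes fixed for the order were those named, and Abcg2, which RefSeq places on chromosome 6.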

Additional observations from a re-analysis of the deposited data

How the results depend on the processing

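Stricter limits left fewer regions by construction. With a score of at least 100 the window held 37 regions covering 36.7%, with a longest empty stretch of 49.4 kb, a median ratio of 2.04 and a median fold of 4.85. With a fold of at least 5 these values were 18 regions, 16.7%, 65.5 kb, 2.22 and 6.285. Joining regions within 1 kb gave 26 regions covering 47.7%, with the same longest empty stretch. Without depth scaling the median ratio was 3.06, larger by the scaling factor. The share of windows with as many regions or more was 0.647% as reported and 0.215% with the windows shifted by 160 kb (1 of 465). Added after the data were seen, it was 1.08% when only scores of at least 100 were counted. Also added then were 0.492% over 7919 windows of all chromosomes but Y and 0.862% with joined regions. Placing regions by summit changed no value. The median ratio was 1.94 with matched levels only and 1.86 with a pseudocount of 5, against 1.89 as reported. No alternative stands in for replicates, and gene positions in mm9 were not used. No paired analysis was possible because each condition has 1 library.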
